A study of Macaca mulatta with 4 samples.

Results

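The regions described here were 2483 bins of 10 kb on the 20 autosomes of the rhesus macaque (Macaca mulatta) that carried H3K27me3 in both libraries of gynogenetic morulae and in exactly 1 of the 2 libraries of androgenetic morulae. They were chosen by measured values. A bin was called marked when at least 450 of its bases were covered by deposited intervals, and a member had to be marked in both GG libraries, marked in 1 AG library and at 0 covered bases in the other AG library. Of 267367 autosomal bins, 27401 were marked in both GG libraries, and the members made up 9.06% of these and 0.929% of all bins. There were 649 members marked in AG replicate 1 and 1834 marked in AG replicate 2. Since covered bases in all 4 libraries chose the bins, the marked state, the 0 and the difference between the AG libraries are a description and carry no test.

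The series concerns genomic imprinting in preimplantation embryos of a primate and holds 2 libraries of genotype AG and 2 of genotype GG, all from embryos at the morula stage, a ball of cells before the blastocyst forms. The series design names androgenetic embryos, whose nuclear genome is paternal, and gynogenetic embryos, whose nuclear genome is maternal, which are taken here as AG and GG. In all 4 libraries the zona pellucida was removed and an antibody against H3K27me3 directed a protein A-MNase fusion to the mark (CUT&RUN, although the sample titles say ChIP-seq). Embryos of a single parental origin are a model of 1 parental genome in the absence of the other, and no biparental library was used here. No label says how many embryos entered a library or whether replicates came from separate pools, so the spread between replicates may be technical.

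H3K27me3 is placed by the Polycomb repressive complex PRC2, whose catalytic subunit is EZH2 or EZH1, and goes with silent chromatin. In mammals the mark is best known at the promoters of silent developmental regulators. In mouse oocytes it also forms broad domains away from promoters, and some of these pass to the embryo on the maternal allele and keep a small group of genes imprinted without DNA methylation. Mature sperm have lost most nucleosomes, and the H3K27me3 they keep lies largely at developmental promoters.

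Covered bases measure where islands of signal lie and do not measure read number, because the deposited intervals hold a position and no count; the depth is unknown. On the autosomes AG replicate 1 covered 13.3 Mb (0.497%) and AG replicate 2 covered 17.0 Mb (0.635%), against 209 Mb (7.80%) and 193 Mb (7.23%) in GG replicates 1 and 2. The submitters' window and gap were 200 and 200 bp for AG and 300 and 1200 bp for GG, so the width of coverage in GG against AG cannot be told apart from these settings. Both AG libraries carry the same settings. With 2 libraries a group no comparison was tested, bins are not replicates, and the intervals given for shares are exact 95% binomial intervals that cover counting error alone.

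The members were unevenly divided between the AG libraries. AG replicate 2 held the mark in 73.9% of them (95% interval 72.1 to 75.6%), which is 2.83 times the number marked in AG replicate 1. AG replicate 2 also covered 1.28 times as many bases as AG replicate 1, marked 1.52 times as many bins (8338 against 5482) and marked 1.39 times as many of the GG-marked bins (4283 against 3078). Since the rule leaves out the bins that both AG libraries mark, the ratio among members is above that among GG-marked bins by construction. The part played in it by the larger coverage of AG replicate 2 was not tested. After AG replicate 2 was thinned at random, by whole intervals, to the covered bases of AG replicate 1, its share of the members was 70.3%. Such thinning takes out scattered intervals and not whole islands, so a bin with several intervals can keep some of them. The 70.3% therefore does not show how much of the share goes with coverage. The members held 8.09% of all autosomal bases of AG replicate 1 and 15.0% of those of AG replicate 2. In GG the corresponding shares were similar to each other, at 8.56% in replicate 1 and 9.46% in replicate 2.

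Beside the members, 2373 GG-marked bins (8.66%) were marked in both AG libraries and 22053 (80.5%) held 0 bases in both. Only 132 bins (0.482%) were marked in 1 AG library and held some bases but under 450 in the other, 56 of them marked in replicate 1 and 76 in replicate 2. A GG-marked bin with a mark in either AG library was therefore about as often a member as a bin marked in both.

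In the library that marked them, members held modest AG coverage. The 649 members of AG replicate 1 held from 451 to 6130 covered bases of the 10000 in a bin, with a median of 1563. The 1834 members of AG replicate 2 held from 451 to 6663, with a median of 1236. Bins marked in both AG libraries had higher medians, 2345 bases in replicate 1 and 2412 in replicate 2, and reached 9910 and 9986 bases. The interquartile ranges of members and of bins marked in both overlapped, running from 1209 to 2012 bases in members of AG replicate 1 and from 1577 to 3785 in the same library in bins marked in both. For AG replicate 2 they ran from 922 to 1684 bases and from 1472 to 3840 bases.

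Coverage by GG was wide in the same bins. Members of AG replicate 1 had a median of 8367 bases in GG replicate 1 and 8668 in GG replicate 2, and members of AG replicate 2 had 7874 and 8156. The lowest GG value in any member was 452 bases and the highest was the whole bin, reached by 60 members in the first GG library and 73 in the second. The GG libraries were close to each other: the median difference between them, regardless of sign, was 455 bases over the members, and GG replicate 2 was the higher in 57.8%. GG-marked bins with 0 bases in both AG libraries had lower GG medians of 6830 and 7414 bases, whereas those marked in both AG libraries had 8073 and 8330, within the range of the members. A GG bin with AG coverage in either library thus had the higher median GG coverage.

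**Figure D1:**
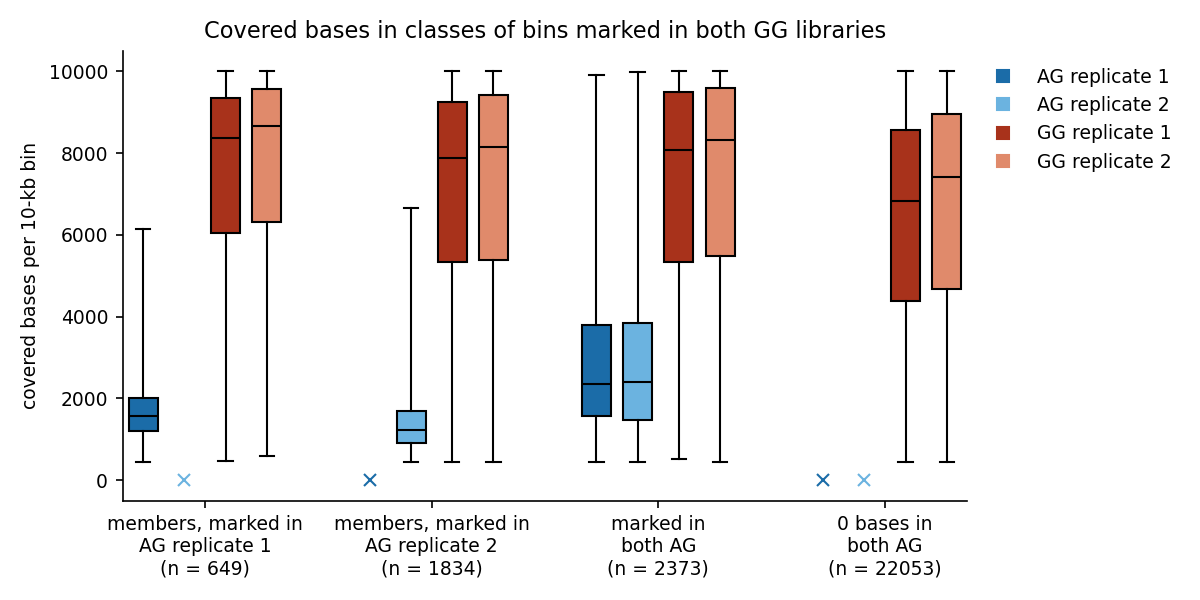
Covered bases per 10-kb bin (vertical axis) in GG-marked bins of 4 classes, with 1 box per library: the box spans the quartiles, the line is the median, the whiskers reach the lowest and highest bin, and a cross stands for bins that are all at 0. Medians in the marked AG library are 1563 and 1236 bases in members, under the 2345 and 2412 of bins marked in both AG libraries, while the GG boxes of these classes lie at similar heights.

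The AG coverage of a member was usually scattered over several short intervals. A member of AG replicate 1 held a median of 6 intervals, and 9 of 649 (1.39%) held a single one. A member of AG replicate 2 held a median of 4, and 146 of 1834 (7.96%) held a single one. The rule favours several intervals, since an interval of the most common length, 150 bp, is shorter than the 450 bases it asks for. When intervals at most 1500 bp apart were joined, the AG domain in a member had a median span of 2830 bp in AG replicate 1 and 1662 bp in AG replicate 2, against 3787 and 3528 bp in bins marked in both. The joined domain ran over the edge of the bin in 40.2% of members of AG replicate 1 and 23.8% of members of AG replicate 2, and in 50.9% and 47.1% of bins marked in both.

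The rule used totals per bin and not where in the bin the bases lie, so the overlap of AG with GG bases inside members was not fixed by it. In members of AG replicate 1, 90.8% of the AG bases lay under GG replicate 1 and 90.7% under GG replicate 2, which covered 74.5% and 76.7% of these bins. In members of AG replicate 2 the values were 90.0% under GG replicate 1 and 89.5% under GG replicate 2, which covered 71.0% and 72.5%. AG bases thus lay under GG bases more often than an even spread over the bin would give, with median ratios per bin between 1.08 and 1.16 over the 4 pairs of an AG with a GG library. With each member's ratio averaged over the GG libraries, the median over all members was 1.13 ± 0.0268 (SD of the medians of the 2 GG libraries). Bins marked in both AG libraries had ratios between 1.11 and 1.16, within the range of the members.

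The ratio was higher where GG left room. It cannot exceed the bases of the bin over its GG bases, so its ceiling is also higher there. The rise in the ratio therefore does not show a closer overlap. Members with under 5000 bases in a GG library were taken for each GG library separately. That library covered between 31.9% and 32.9% of their bases, whereas between 65.6% and 69.5% of the AG bases lay under it. The median ratios were between 2.20 and 2.30. Even so, in 12.8% to 19% of these members no AG base lay under the intervals of that GG library in the bin. In this minority the AG intervals lay apart from those of the GG library compared. Whether the other GG library covered them was not taken. In bins marked in both AG libraries and equally low in a GG library, the share with no AG base under that library was 4.73% to 6.93%. Their median ratios were between 2.31 and 2.35, near those of the members. Over all GG coverage, members held fewer AG bases, with medians of 1563 and 1236 against 2345 and 2412. The shares were not taken at matched AG coverage.

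The coordinates below are in rheMac8, counted from 1. Gene annotation of these regions was not analysed here, and no sequence is printed. Among members of AG replicate 1, the highest AG coverage was at chr19:23570001-23580000, with 6130 bases in AG replicate 1, 0 in AG replicate 2, 9406 in the first GG library and 9666 in the second. The nearest interval of AG replicate 2 lay 98.2 kb away. The next was chr4:169680001-169690000, with 5658, 0, 9947 and 9968 bases in the same order of libraries and an interval of AG replicate 2 at 4.81 kb. Both bins were covered over most of their length in 1 AG library and nearly full in GG, at very different distances from the other AG library. The next in order, chr6:59200001-59210000, held 4835, 0, 10000 and 10000 bases, with AG replicate 2 at 3.74 kb. The bin chr14:127700001-127710000 held 4508, 0, 9618 and 9602 bases, 0.181 Mb from the chromosome's end, with AG replicate 2 at 5.04 kb. The last of these 5, chr11:131590001-131600000, held 4404, 0, 7762 and 7886 bases and lay 208 kb from AG replicate 2. In 3 of the 5 the library at 0 thus had an interval within 10 kb, and in the other two it lay 98.2 and 208 kb away.

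Among members of AG replicate 2, the highest AG coverage was at chr3:183410001-183420000, with 0 bases in AG replicate 1, 6663 in AG replicate 2, 3063 in GG replicate 1 and 5146 in GG replicate 2. An interval of AG replicate 1 lay 0.200 kb from its edge. This was a member with more AG than GG coverage. The bin chr4:32880001-32890000 held 0, 6290, 9764 and 9913 bases in the same order, with AG replicate 1 at 52.6 kb, and chr1:2040001-2050000 held 0, 5366, 9568 and 9458 bases, with AG replicate 1 at 1.70 kb. The bin chr2:131300001-131310000 held 0, 5301, 6909 and 7288 bases, with AG replicate 1 at 0.244 kb, inside an AG domain of 21.4 kb. The bin chr19:26110001-26120000 held 0, 5280, 9591 and 9650 bases, with AG replicate 1 at 6.51 kb, inside GG domains of 236 and 377 kb. The library at 0 lay within 10 kb of 4 of these 5 bins, so several of the members with the highest coverage sat beside an interval of the library they lack.

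At the other extreme lay members far from any interval of the AG library at 0. The farthest member of AG replicate 1, chr15:54630001-54640000, lay 4737 kb from AG replicate 2 and held 1240 bases in AG replicate 1, 5851 in the first GG library and 5252 in the second. The next, chr14:94490001-94500000, lay 3998 kb away and held 2851, 4895 and 5248 bases in those libraries. Of the members of AG replicate 2, chr6:98060001-98070000 lay 7487 kb from AG replicate 1 and held 1697 bases in AG replicate 2, 4501 in GG replicate 1 and 3433 in GG replicate 2. On the same chromosome, chr6:105080001-105090000 lay 4837 kb away and held 2537, 5441 and 4144 bases. These isolated members sat in narrow GG domains of 5.5 to 12.3 kb.

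The flanks of the members were not used by the rule and hold the AG library that is at 0 inside the bin. An interval of AG replicate 2 lay within 10 kb of 206 of 649 members of AG replicate 1 (31.7%), while it did so for 15.8% of all GG-marked bins with 0 bases of AG replicate 2 (3614 of 22830, members included). For members of AG replicate 2, an interval of AG replicate 1 lay within 10 kb in 365 of 1834 (19.9%), against a background of 10.9% (2618 of 24073). In both directions the share in members was above that background. Over all members the count was 571, or 23.0%, so in most members the library at 0 was also absent from the flanking 10 kb. The median distance from a member of AG replicate 1 to AG replicate 2 was 23.7 kb, against 63.9 kb over the background bins. From a member of AG replicate 2 to AG replicate 1 it was 63.9 kb, against 116 kb. Bins with 0 GG bases in both libraries that were marked in the same single AG library gave 23.4% (152 of 649) and 15.3% (314 of 2051) within 10 kb, between the members and the GG-marked background.

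**Figure D2:**
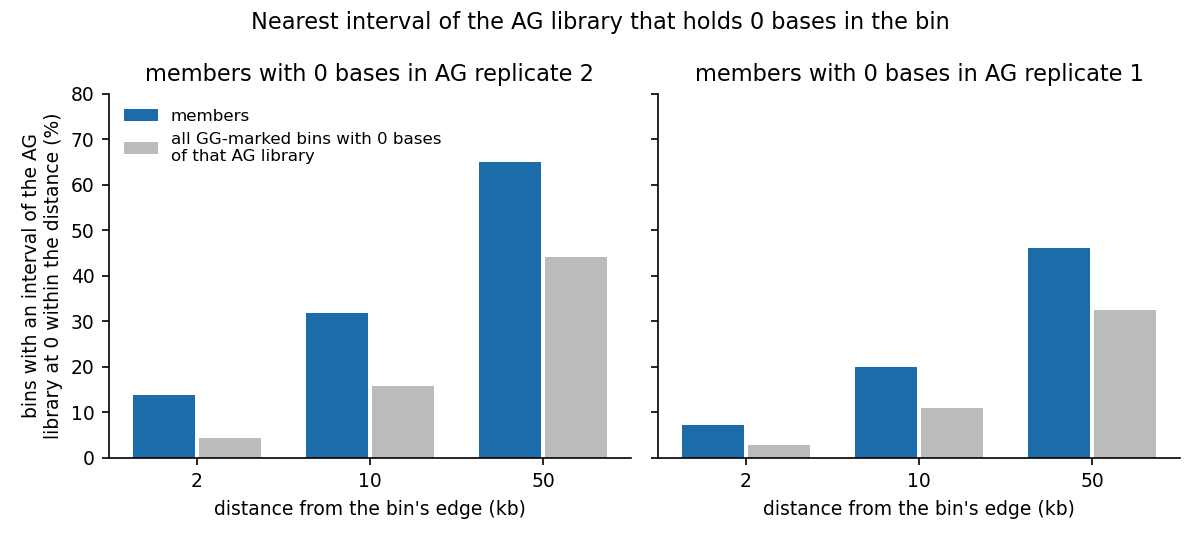
Share of bins (vertical axis, %) with an interval of the AG library that is at 0 in the bin within 2, 10 or 50 kb of its edges (horizontal axis), for members (blue bars) and for all GG-marked bins with 0 bases of that library (grey bars, members included). At each distance the members stand higher, at 31.7% against 15.8% within 10 kb for AG replicate 2 and 19.9% against 10.9% for AG replicate 1.

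Coverage levels in the flanks gave the same order. In the first 10 kb outside members of AG replicate 1, AG replicate 1 covered 5.68% of bases and AG replicate 2 covered 3.59%, which are 11.4 and 5.65 times their autosomal means. Outside members of AG replicate 2, AG replicate 2 covered 4.54% and AG replicate 1 covered 2.59%, or 7.15 and 5.22 times their means. Around bins with 0 bases in both AG libraries the same flanks held 2.15 and 2.20 times the means, and around bins marked in both they held 24.3 and 20.6 times. The flanks of members thus lay between these classes in both AG libraries, including the one absent from the bin. From 40 to 50 kb out the library at 0 was still at 3.94 times its mean around members of AG replicate 1 and 3.76 times around members of AG replicate 2, against 2.17 and 2.26 times around bins at 0 in both. In the first kb the library at 0 was lower than over the first 10 kb, next to bases that the rule holds at 0.

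**Figure D3:**
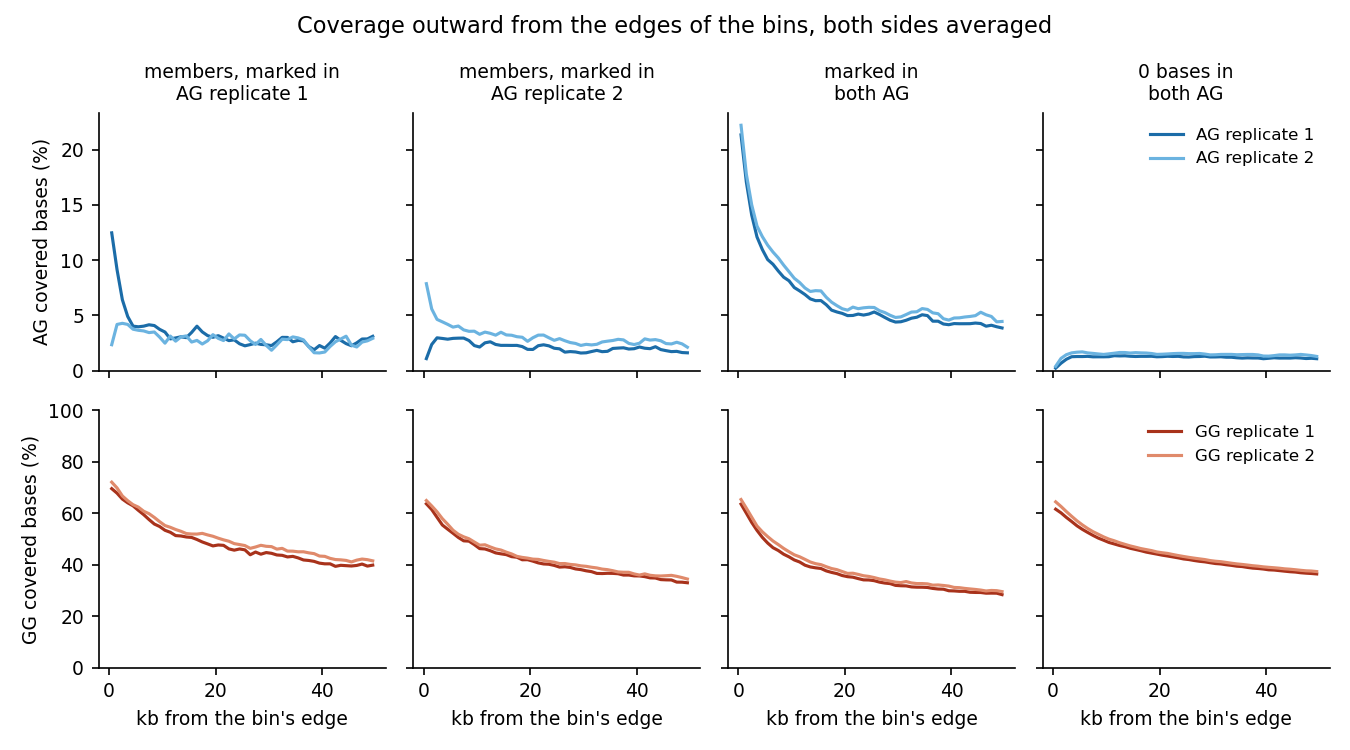
Percentage of bases covered (vertical axes, AG above and GG below) against distance from the bin's edge in kb (horizontal axis), averaged over both sides, for 4 classes of GG-marked bins, with 1 line per library. In members the marked AG library falls from 12.5% (replicate 1) or 7.86% (replicate 2) in the first kb, and the library at 0 starts at 2.34% or 1.08% and stays above its level around bins at 0 in both AG libraries.

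The most frequent neighbours of members were GG-marked bins with 0 bases in both AG libraries. Of the 1297 bins next to a member of AG replicate 1, 48.5% were GG-marked with 0 bases in both AG libraries, 18.2% were not marked in both GG libraries, 13.0% were members marked in the same AG library, 11.8% were marked in both AG libraries and 4.32% were members marked in the other. Of the 3668 bins next to a member of AG replicate 2 the shares were 48.0%, 26.4%, 12.9%, 7.96% and 1.53% in that order. A member's neighbour was thus more often a member of the same AG library than of the other. An AG domain that ran over a bin's edge, as in 40.2% and 23.8% of members, lay in both bins. The part played by such domains was not tested.

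Consecutive members formed runs. The 2483 members fell into 2107 runs, of which 1798 were single bins, 265 had 2 bins, 26 had 3 and 18 had 4 or more. In all, 685 members (27.6%) had a member in the next bin on either side. This share was not taken for other classes of bin, so it does not show whether members cluster more than those. Of the 309 runs with more than 1 bin, 53 held members of both AG libraries, so that replicate 1 marked some bins and replicate 2 marked the adjoining ones. The longest run, of 6 bins at chr4:169650001-169710000, was of this kind, with 4 bins marked in AG replicate 1 (10223 bases, 17.0% of the run) and 2 in AG replicate 2 (2788 bases, 4.65%). The GG libraries covered 96.0% and 98.0% of it, and both adjoining bins were GG-marked with 0 AG bases. The run of 5 bins at chr15:4770001-4820000 held 1 bin of AG replicate 1 and 4 of AG replicate 2, with 91.0% and 89.7% covered in GG. The run of 5 bins at chr19:1060001-1110000 was marked by AG replicate 2 alone (8295 bases, 16.6%), with 53.8% and 52.8% covered in GG and no adjoining GG-marked bin.

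Members lay, by their medians, in somewhat wider GG domains than other GG-marked bins. With GG intervals at most 1500 bp apart joined, the domain holding a member had a median width of 25.02 kb in the first GG library and 28.5 kb in the second. For bins marked in both AG libraries the medians were 21.7 and 23.6 kb, and for bins with 0 bases in both they were 21.9 and 23.8 kb. Members of AG replicate 1 had the wider domains, at 29.4 and 36.2 kb, while those of AG replicate 2 were at 23.8 and 25.6 kb. With each width averaged over the GG libraries, members of AG replicate 1 were at 32.9 kb and those of AG replicate 2 at 25.03 kb. The latter was close to the 24.6 kb of bins at 0 in both AG libraries. Quartiles were broad: in GG replicate 1 the middle range ran from 12.0 to 55.3 kb for members and from 11.5 to 43.0 kb for bins at 0 in both AG libraries. Domains of at least 50 kb held 27.5% of members in GG replicate 1 and 33.7% in GG replicate 2. Without the outer 5 Mb of each autosome, members of AG replicate 2 were at 21.6 and 20.8 kb, close to the 20.4 and 21.4 kb of bins at 0 in both AG libraries, and members of AG replicate 1 were at 25.1 and 28.8 kb.

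Members were concentrated towards chromosome ends. The outer 5 Mb of the autosomes held 741 members (29.8%), compared with 7.49% of all bins and 19.6% of GG-marked bins. The share was 34.8% for members of AG replicate 1 and 28.1% for members of AG replicate 2, above the 23.3% of bins marked in both AG libraries and the 17.9% of bins at 0 in both. Farther in lay 423 of 649 members of AG replicate 1 and 1319 of 1834 of AG replicate 2. Of bins with 0 GG bases marked in the same single AG library, 452 of 649 and 1434 of 2051 lay farther in. Lying near the ends was thus not particular to members among bins marked in a single AG library. Among the GG-marked bins of the outer 5 Mb, 4.22% were members of AG replicate 1 and 9.61% members of AG replicate 2, against 1.92% and 5.98% of those farther in. AG replicate 2 held 69.5% of members in the outer 5 Mb and 75.7% of those farther in. With the outer 5 Mb left out, 29.8% of members of AG replicate 1 and 17.7% of members of AG replicate 2 had the AG library at 0 within 10 kb, against backgrounds of 13.8% and 9.21%, so the excess in the flanks was also seen away from the ends.

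Every autosome held members of both kinds. They made up between 5.78% (chromosome 13) and 12.6% (chromosome 18) of the GG-marked bins of a chromosome, with a median of 9.34%. Members of AG replicate 2 outnumbered those of AG replicate 1 on 20 of 20 autosomes, by 1.37 times on chromosome 14 (71 against 52) and up to 8 times on chromosome 20 (64 against 8). On chromosome 18 there were 54 members, 72.2% of them in the outer 5 Mb, and on chromosome 15 there were 125, of which 54.4% were there. On chromosome 7, by contrast, 8.26% of 121 members were in the outer 5 Mb. Chromosome 19, short and dense in GG-marked bins, had 105 members, 11.9% of its GG-marked bins, and 19% of them lay near its ends. Chromosomes 18, 15, 7 and 19 span 7012, 11129, 16957 and 5365 bins, so the outer 5 Mb is a different part of each. The share of all bins or of GG-marked bins there was not taken by chromosome. These shares therefore show no excess of members near the ends of a given chromosome.

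**Figure D4:**
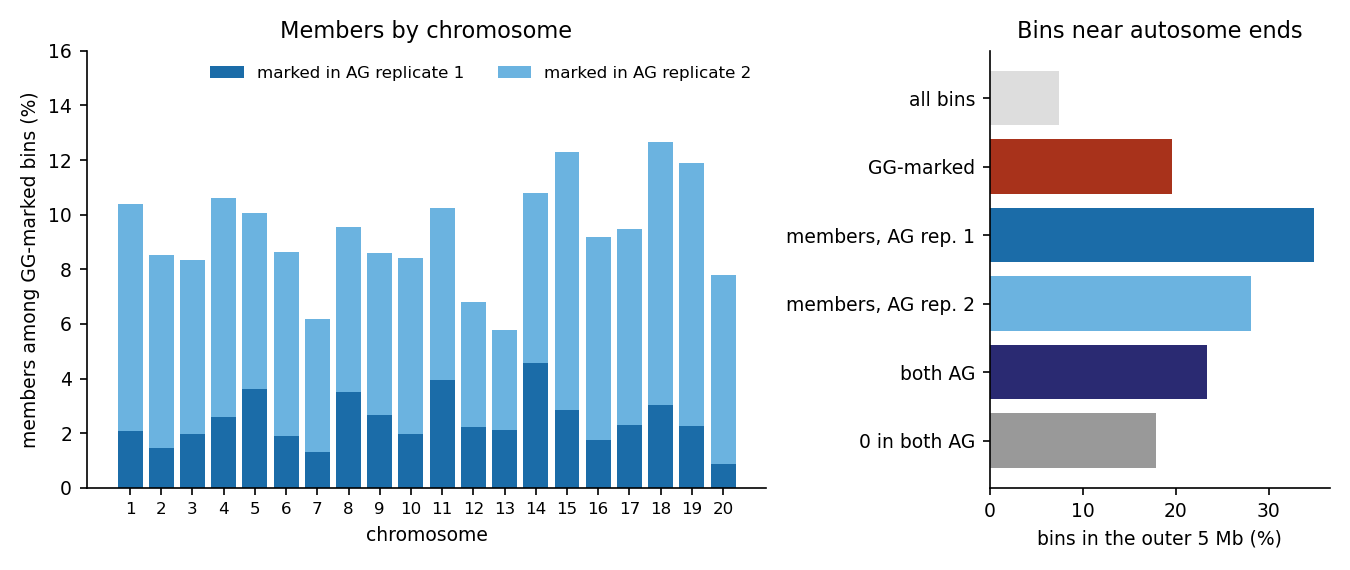
Left, members as a percentage of GG-marked bins (vertical axis) on each autosome (horizontal axis), stacked by the AG replicate that marks them; right, the percentage of bins of each class in the outer 5 Mb of an autosome (horizontal axis). Chromosome 13 is lowest at 5.78% and chromosome 18 highest at 12.6%, and members reach 34.8% and 28.1% near the ends against 19.6% of GG-marked bins.

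The last comparison set members against the bins that the AG libraries share. Of 3078 GG-marked bins marked in AG replicate 1, 649 (21.1%) held 0 bases in AG replicate 2, and of 4283 marked in AG replicate 2, 1834 (42.8%) held 0 in AG replicate 1. In bins with 0 GG bases in both libraries the same shares were 34.1% (649 of 1906) and 62.0% (2051 of 3308). AG marks were thus absent from the other AG library less often where GG was marked than where GG was at 0, by a mean ratio of 1.53 ± 0.118 (SD over the AG libraries as the marked one).

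AG coverage differed between these kinds of bin, so the shares were also taken at matched coverage. For bins with 450 to 999 bases in AG replicate 1, 34.9% of GG-marked bins (95% interval 29.8 to 40.3%) and 49.4% of bins without GG (43.1 to 55.8%) were at 0 in AG replicate 2. From 1000 to 1999 bases the values were 32.1% and 40.7%, from 2000 to 3999 bases 15.1% and 25.04%, and from 4000 bases up 0.935% and 3.57%. For AG replicate 2 the corresponding pairs were 63.8% and 80.0%, 59.1% and 69.3%, 22.6% and 35.4%, and 2.95% and 7.19%. The GG-marked value was the lower of each pair in every stratum of both AG libraries, although the intervals overlapped in the highest stratum of each. Bins in any other GG state gave 30.6%, 33.7%, 15.9% and 0% for AG replicate 1, from the lowest stratum up. For AG replicate 2 they gave 62.9%, 63.8%, 34.3% and 1.25%. These too were below the bins without GG in every stratum, and lay above or below the GG-marked bins by stratum. A lower share was thus not particular to bins marked in both GG libraries. Disagreement fell steeply with AG coverage, and with at least 4000 AG bases only 5 GG-marked bins of 535 in AG replicate 1 and 17 of 576 in AG replicate 2 were members. The difference by GG state was not tested.

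**Figure D5:**
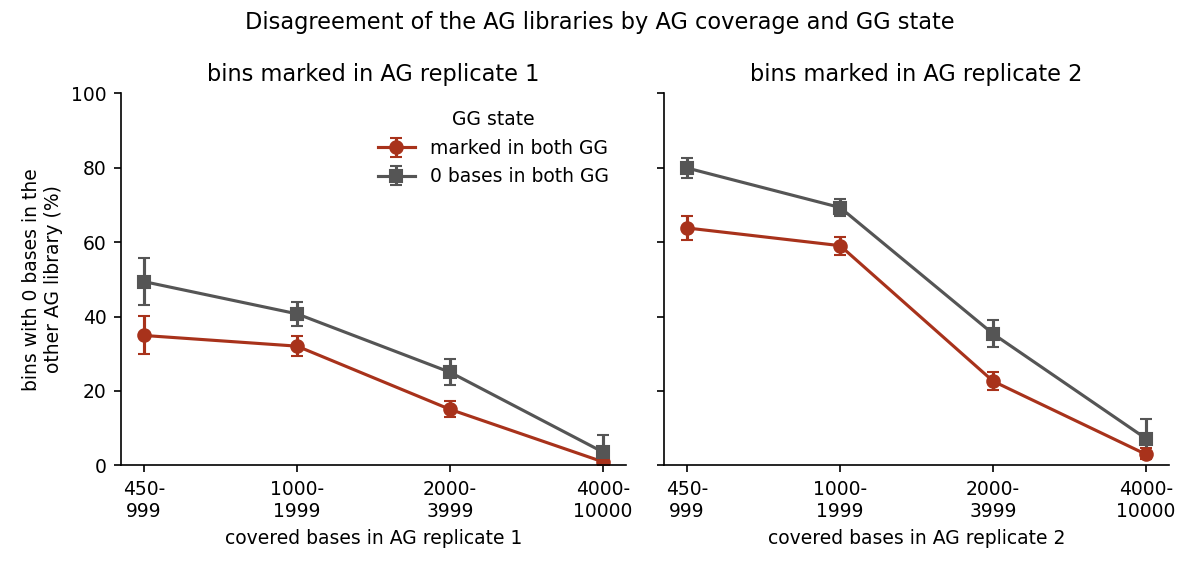
Percentage of bins marked in an AG library that hold 0 bases in the other AG library (vertical axis) by covered bases in the marked library (horizontal axis), for bins marked in both GG libraries (red circles, where the share plotted is that of members) and bins with 0 GG bases (grey squares). Bars are exact 95% binomial intervals. Bins in any other GG state are not shown. Values fall from 34.9% to 0.935% for AG replicate 1 and from 63.8% to 2.95% for AG replicate 2 in GG-marked bins, below the grey points in every stratum.

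Within GG-marked bins the share that were members varied less with the extent of GG coverage than with that of AG. For AG replicate 1 the share at 0 in the other AG library was 17.4% where the mean of the GG libraries was under 2500 bases, 18.2% from 2500 to 4999, 19.3% from 5000 to 7499 and 22.9% from 7500 up. For AG replicate 2 it was 38.9%, 43.8%, 45.1% and 42.0%. The 95% intervals of the lowest and highest classes overlapped for both AG libraries, at 11.9 to 24.0% and 20.9 to 24.9% for replicate 1 and at 32.8 to 45.4% and 40.02 to 44.02% for replicate 2. Bins are not replicates, so the overlap of these intervals is not a test. For replicate 1 the share rose from class to class, while for replicate 2 it fell again in the highest class.

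Few members lay at the threshold of 450 bases. Just inside it were chr19:13870001-13880000 and chr6:58410001-58420000, with 451 and 459 bases in AG replicate 1, and chr18:6620001-6630000 and chr10:52350001-52360000, with 451 and 454 bases in AG replicate 2. Just outside were chr1:3870001-3880000 and chr7:47090001-47100000, with 449 and 437 bases in AG replicate 1, and chr12:10310001-10320000 and chr4:164430001-164440000, with 448 and 447 bases in AG replicate 2. Members with under 500 AG bases numbered 9 for AG replicate 1 (1.39%) and 28 for AG replicate 2 (1.53%). A further 128 and 186 GG-marked bins held some bases of AG replicate 1 or 2 but under 450, and 0 of the other.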

How the data were processed

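H3K27me3 was measured by CUT&RUN in 4 libraries, 2 labelled AG and 2 labelled GG, grouped by the sample titles. Per the submitters' processing notes, SICER 1.1, deepTools 3.3.1, Bowtie2, SAMtools and Trim Galore were used with the build rheMac8; their roles are not stated there. Per the names of the deposited tables, islands were filtered at an E value of 0.001, library by library, with the windows and gaps given above. SICER joins enriched windows across gaps, so a larger gap keeps more bases. The deposited intervals hold a start and an end and no count; they did not overlap, were 20 bp or longer and were most often 150 bp long, and how reads were joined is not stated.

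Covered bases were summed in 10-kb bins from position 0 with Python 3.11.15, numpy 2.4.6, pandas 2.3.3 and scipy 1.17.1. Chromosome ends were the highest interval end over all libraries. Interval functions were checked on simulated intervals. At most 66 intervals were identical between any pair of libraries. The members, lists and measures were chosen with earlier results of these data known. Named regions were, for each marked AG library, the 5 members with the most AG bases, the 2 farthest from the library at 0 and the 2 on either side of the threshold, and the 3 longest runs. Counts over gene lists had been planned; they need gene positions in rheMac8, which were not used here. No test was run.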

Additional observations from a re-analysis of the deposited data

Results flagged for a closer look

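The X chromosome lies outside the rule, which takes autosomes alone, yet it held bins of the same kind, and this signal in data not used above is the reason for naming it. There were 11 such bins, 8 marked in AG replicate 1 and 3 in AG replicate 2, of 1897 X bins marked in both GG libraries. They made up 0.580% of these (exact 95% interval 0.290 to 1.04%), above the 0.158% that a count of 0 would allow and below the 9.06% of the autosomes. The first 2 Mb of X held 6 of the 8 and 1 of the 3, and 9 of the 12 X bins marked in all 4 libraries. The difference between X and the autosomes was not tested.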

How the results depend on the processing

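Over 95 alternative values, 62 stayed within the spread of the reported value and 33 moved beyond it; a count of bins was taken as moved past 1.5 times. The number of members ran from 2139 to 2947 and never moved by this rule. The 2947 were bins of 5 kb, and bins of 20 kb gave 2171. Counts of bins of other sizes are in unlike units, so the rule says little about these settings. Bins of 5 kb and of 20 kb gave 71.4% and 75.6% of members marked in AG replicate 2, ratios of AG bases under GG of 1.06 and 1.29, 29.05% and 18.5% with the library at 0 within 10 kb, domain widths of 30.3 and 24.2 kb and GG medians of 4504 and 12236 bases; bins of 5 kb gave 32.9% with a member next, and bins of 20 kb gave 27.5% in the outer 5 Mb. Larger bins hold more bases by construction. Thinning AG replicate 2 gave 70.3% marked in it and 25.2% with a member next. Clustering all libraries alike (joining over gaps up to 200 bp and keeping clusters from 1000 bp) gave 70.1%, 24.96% with a member next and a domain width of 22.6 kb. Marking at 300 and 750 bases gave 30.7% and 21.1% with a member next. Within 2 and 50 kb, 8.90% and 51.03% had the library at 0; joining at 500 and 3000 bp gave domains of 17.9 and 39.2 kb; the outer 2 and 10 Mb held 15.5% and 42.1%. Leaving out either GG library gave ratios of 1.11 to 1.18, domains of 21.2 to 27.5 kb, 27.7% to 30.02% in the outer 5 Mb and GG medians of 7406 to 8212 bases, the lower domain width and median without GG replicate 2. Without the outer 5 Mb, an alternative chosen after seeing the data, 75.7% were marked in AG replicate 2, 20.6% had the library at 0 within 10 kb, domains were 23.9 kb wide and the ratio of disagreement was 1.79. The causes of these shifts were not tested. No AG library could be left out, since the rule needs both. No paired analysis was possible because no result comes from a test and no label pairs AG with GG. Depth is unknown, so 0 covered bases shows only that no island was kept there, not that the mark is absent.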
